A study of Oryctolagus cuniculus with 24 samples.

Results

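The genes described here encode the protein subunits of the mitochondrial ribosome, and their transcripts were measured in rabbit peripheral blood mononuclear cells (PBMCs). They were chosen by name. A probe was taken when its gene symbol, given by the array design or found through its RefSeq accession or gene number, started with MRPL or MRPS followed by a digit. This gave 36 genes and 85 probes, of 28914 genes and 42089 probes measured. The large ribosomal subunit holds 27 of the encoded proteins and the small subunit 9. Of the 36 genes, 6 (MRPL1, MRPL40, MRPL42, MRPL47, MRPL55 and MRPS12) were named through a gene number alone. Many other genes of the mitochondrial ribosome, MRPL12 and MRPS30 among them, were not matched to a probe by this rule, so that the 36 cover only some of its proteins.

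PBMCs, a mixture of lymphocytes and monocytes, were purified by a density gradient from the blood of 4 rabbits. The animals were adult females of the New Zealand White breed and are called rabbit 1, 2, 4 and 5 here. Cells of each rabbit were mock-stimulated, stimulated with lipopolysaccharide (LPS, 1 µg/mL), or stimulated with a mixture of phorbol myristate acetate (PMA, 10 ng/mL) and ionomycin (1 µg/mL). They were harvested after 4 h (T4) or 24 h (T24), so that 6 groups of 4 arrays, 24 in all, were obtained. Each culture was measured on a Cy3 one-colour Agilent array of its own. LPS, which comes from the envelope of Gram-negative bacteria, is sensed mainly by monocytes and B cells. PMA activates protein kinase C and ionomycin raises intracellular calcium, so that together they bypass the antigen receptor of lymphocytes. The cultures are mixtures of cell types of one sex and breed, and in such bulk samples fewer cells of a type and less RNA per cell cannot be told apart.

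The mitochondrial ribosome translates the few messenger RNAs encoded by mitochondrial DNA, all of which specify subunits of the oxidative phosphorylation complexes. Its RNA is made in the organelle, whereas all of its proteins are encoded in the nucleus, made in the cytosol and imported. Some of these proteins have a homologue in the bacterial ribosome and others are found only in mitochondria, and activation of lymphocytes is known to be accompanied by growth of the mitochondrial mass. As listed here, 21 members were counted with a bacterial homologue (16 of the large and 5 of the small subunit). Another 15 were counted as specific to mitochondria (11 of the large and 4 of the small subunit). MRPS18A is counted with the large subunit, where its protein sits despite its name. It was put with the mitochondria-specific proteins, although it belongs to the family of the bacterial protein S18. The class counts and medians below keep it there.

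A level below is the log2 median spot signal minus the median of its array, so that 0 is the middle probe of an array and a difference of 1 is a doubling. Probes of a gene were averaged. The genes with a single probe numbered 19, and 17 genes had several. Probes of different genes bind with different strength, so levels are compared only within a gene. All but 2 members were well above background on all 24 arrays. The exceptions were MRPL49, above background on 23 arrays, and MRPS27, on 11. Between 51.4% and 62.3% of the spots of an array were well above background, and the 6 groups were spread over the same 3 slides. Differences were tested by limma over all 28914 genes with Benjamini-Hochberg adjustment, and a gene is said to have risen or fallen where its adjusted p was under 0.05.

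The probes that carry the main results are 60 bases long, and their positions are those the array design gives on oryCun2. The probes shown first belong to MRPL14, the only member whose mean was below mock after PMA-Ionomycin at T24. They lie on the minus strand at chr12:33516419-33516478, chr12:33516425-33516484 and chr12:33516427-33516486, and the capitals mark the 52 bases that all 3 share. Their mean levels were 3.57, 3.52 and 4.28, in the order printed.
MRPL14 probe 1: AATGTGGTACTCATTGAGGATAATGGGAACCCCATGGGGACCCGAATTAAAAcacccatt
MRPL14 probe 2: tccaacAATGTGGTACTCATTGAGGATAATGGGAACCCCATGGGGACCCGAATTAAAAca
MRPL14 probe 3: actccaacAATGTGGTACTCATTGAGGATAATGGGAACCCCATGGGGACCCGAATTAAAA
Because the 3 probes read nearly the same stretch, they are no independent measures of MRPL14.

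MRPL35, a large-subunit protein with a bacterial homologue, is the member whose probes disagreed, and one probe of each kind is shown. The first is one of 5 transcript probes on the minus strand, at chr2:100154582-100154641, with the 56 bases shared by all 5 in capitals. The second is one of 2 probes made from expressed sequence tags on the plus strand, at chr2:100156924-100156983, with the 30 bases shared by both in capitals.
MRPL35 transcript probe: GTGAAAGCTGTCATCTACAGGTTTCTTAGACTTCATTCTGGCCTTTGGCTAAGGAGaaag
MRPL35 tag probe: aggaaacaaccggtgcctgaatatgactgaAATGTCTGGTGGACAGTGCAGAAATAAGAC
The transcript probes had mean levels of 3.99 to 4.32. The tag probes, on the opposite strand, had mean levels of -0.83 and -0.63 and were well above background on 2 and 5 arrays. After 24 h of PMA-Ionomycin the log2 fold change against mock lay between 1.90 and 1.98 on the transcript probes and between 0.38 and 0.42 on the tag probes, so the gene's mean of 1.497 lies below what its transcript probes showed. For the other genes with several probes the log2 fold changes at that time differed by at most 0.27, in MRPL19.

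The next probes are those of the members that moved most or in opposite directions at the 2 times. MRPS22 is read at chr14:33009392-33009451 on the plus strand, with the 20 bases that its 2 probes share in capitals. MRPS12 is read at chr5:867067-867124 and MRPL47 at chr14:75042307-75042366, both on the minus strand and shown without capitals. The interval that the array design gives for MRPS12 is shorter than the printed probe.
MRPS22 probe: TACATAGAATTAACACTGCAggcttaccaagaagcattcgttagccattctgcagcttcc
MRPS12 probe: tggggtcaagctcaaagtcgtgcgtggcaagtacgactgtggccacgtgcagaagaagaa
MRPL47 probe: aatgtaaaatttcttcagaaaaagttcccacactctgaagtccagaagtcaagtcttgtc

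After 24 h of PMA-Ionomycin, 29 of the 36 members rose and none fell, while 33.6% of all genes tested passed the test in either direction and 22.1% rose. No member fell at an unadjusted p under 0.05 in limma either. The median log2 fold change of the members was 1.26, against 0.03 over all genes. With quantile normalization the medians were 0.79 and -0.00, with 25 members higher and 1 lower, where 32.7% of all genes passed and 17.3% rose. As first scaled, 35 of 36 had a value above 0, where 44.8% of all genes lay below it. The 4 stimulated and 4 mock cultures did not overlap for 29 members, all higher after stimulation, and such non-overlap was found for 21.2% of all genes. Bright genes rose more often than dim ones on these arrays. Among the 12264 genes well above background on all arrays, 40% rose with a median of 0.25, against 28 of the 34 members in that set with a median of 1.35. Across the 36 members the log2 fold change was nearly unrelated to the level in mock-stimulated cells at T24 (Spearman's rho = 0.098, a description over genes measured on the same arrays).

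**Figure D1:**
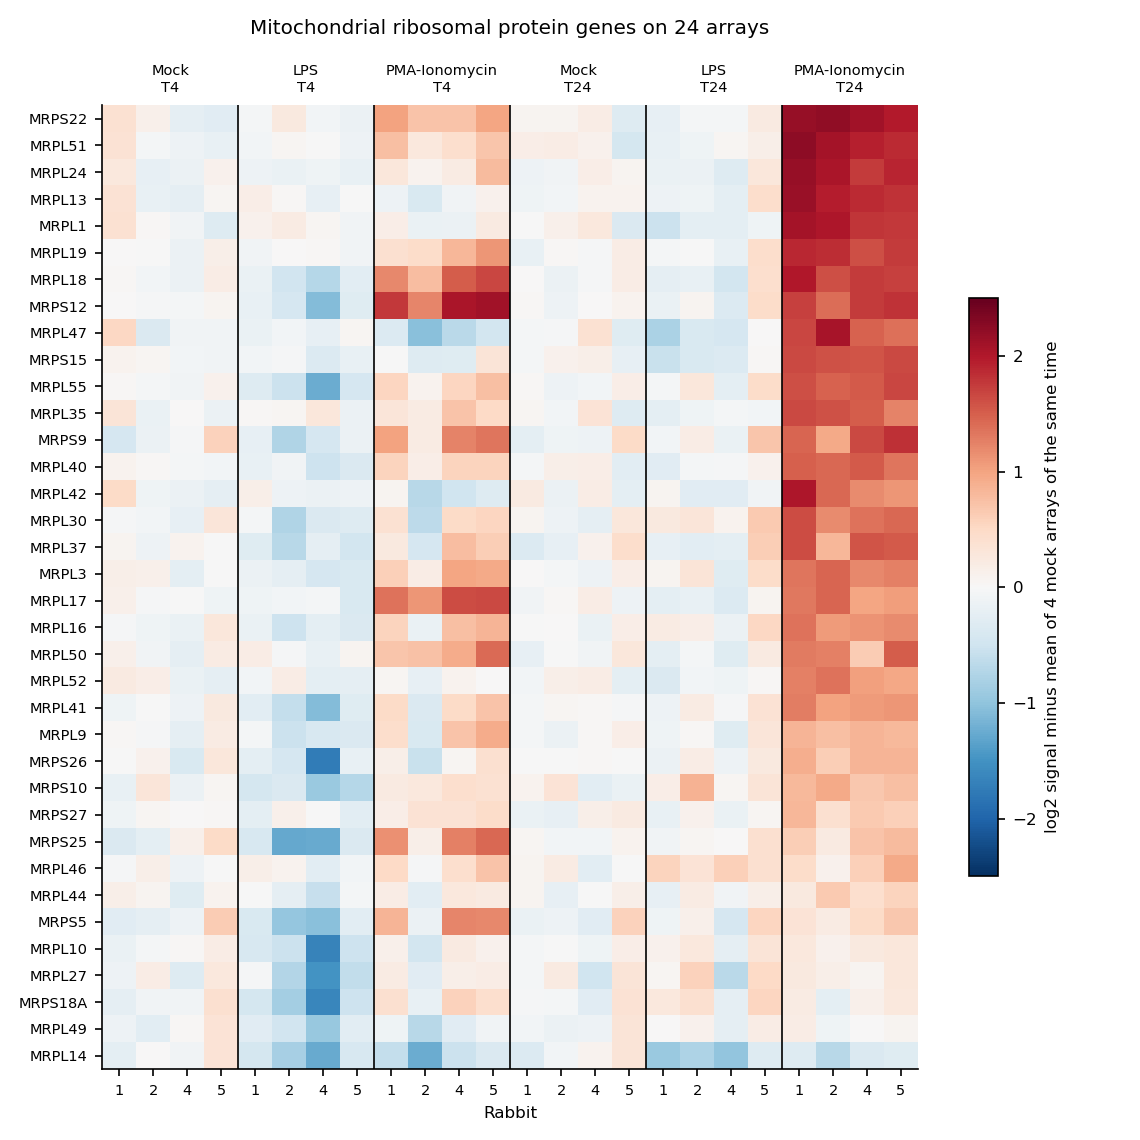
Colour gives the log2 signal of each of the 36 genes (lines, from the largest to the smallest log2 fold change after PMA-Ionomycin at T24) in each of the 24 cultures (columns, by group and rabbit), minus the mean of the 4 mock-stimulated cultures of the same time. The 4 cultures given PMA-Ionomycin for 24 h are above mock for most genes, those of T4 for fewer and least in rabbit 2, and MRPL14, at the bottom, is below the mock mean in every stimulated culture.

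MRPS22, a small-subunit protein specific to mitochondria, showed the largest rise. Its levels in rabbits 1, 2, 4 and 5 were 3.61, 3.61, 3.72 and 3.22 in mock-stimulated cells at T24, and 5.72, 5.77, 5.64 and 5.51 after PMA-Ionomycin. All stimulated cultures lay far above all mock cultures, and rabbits differed little. The log2 fold change was 2.12 ± 0.14 (SE, n = 4 rabbits), or 4.35-fold (limma adjusted p = 5.6e-11).

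MRPL51, a mitochondria-specific protein of the large subunit, had levels of 5.29, 5.30, 5.23 and 4.68 in the mock cultures and 7.36, 7.20, 7.06 and 6.98 after PMA-Ionomycin. Rabbit 5 was low in mock, and the groups were well apart. MRPL51 had a log2 fold change of 2.03 ± 0.15 (limma adjusted p = 1.7e-10). MRPL24, with a bacterial homologue that starts the assembly of the large subunit, had 5.12, 5.16, 5.41 and 5.32 in mock and 7.44, 7.29, 7.0 and 7.15 after stimulation. It rose by 1.97 ± 0.15 on the log2 scale (limma adjusted p = 3.2e-10), again without overlap.

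MRPL13 rose by 1.95 ± 0.15 and MRPL1, whose bacterial homologue forms the stalk where transfer RNA leaves the ribosome, by 1.92 ± 0.15 on the log2 scale. MRPL19, another large-subunit protein with a bacterial homologue, went from 1.66, 1.86, 1.81 and 2.02 in mock to 3.71, 3.68, 3.45 and 3.59 after stimulation, a log2 fold change of 1.77 ± 0.14. The smallest called rise was 0.47 ± 0.15, for MRPL44 (limma adjusted p = 0.018). MRPS27 rose by 0.62 ± 0.12 on the log2 scale, but was well above background in only 1 of the 4 mock cultures at T24.

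Genes of both subunits and both origins rose. Of the 16 large-subunit proteins with a bacterial homologue 13 rose (median log2 fold change 1.45), and of the 11 mitochondria-specific ones 9 rose (median 1.15). In the small subunit, 4 of 5 with a bacterial homologue rose (median 1.47) and 3 of 4 specific to mitochondria (median 0.71). The classes were not tested against each other.

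Some marker sums of cell types that PBMC cultures can hold moved at the same time. The monocyte, neutrophil and NK cell sums did not overlap between mock and PMA-Ionomycin at T24, whereas the other sums did. The summed signal of 8 monocyte markers (8 of 11 on the list were found), on a scale where 1 is the array median, was 364 to 884 in mock cultures at T24 and 70.6 to 133 after PMA-Ionomycin. That of 3 neutrophil markers (3 of 7 found) was 78.0 to 1853 in mock and 5.82 to 16.6 after PMA-Ionomycin. The 8 T cell markers (8 of 11 found) summed to 11.3 to 18.6 in mock and 14.7 to 18.6 after stimulation, and the 5 B cell markers (5 of 9 found) to 139 to 654 and 149 to 297. The single NK cell marker found, PRF1 (1 of 6), had 1.26 to 2.15 in mock and 2.92 to 3.95 after stimulation, the 3 platelet markers (3 of 7) 2.95 to 5.29 and 4.92 to 9.62, and the 3 erythrocyte markers (3 of 8) 5.22 to 33.2 and 4.82 to 11.4. GP1BA, a platelet marker, was the one marker above background on no array. The part of these changes in the result was not tested.

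**Figure D2:**
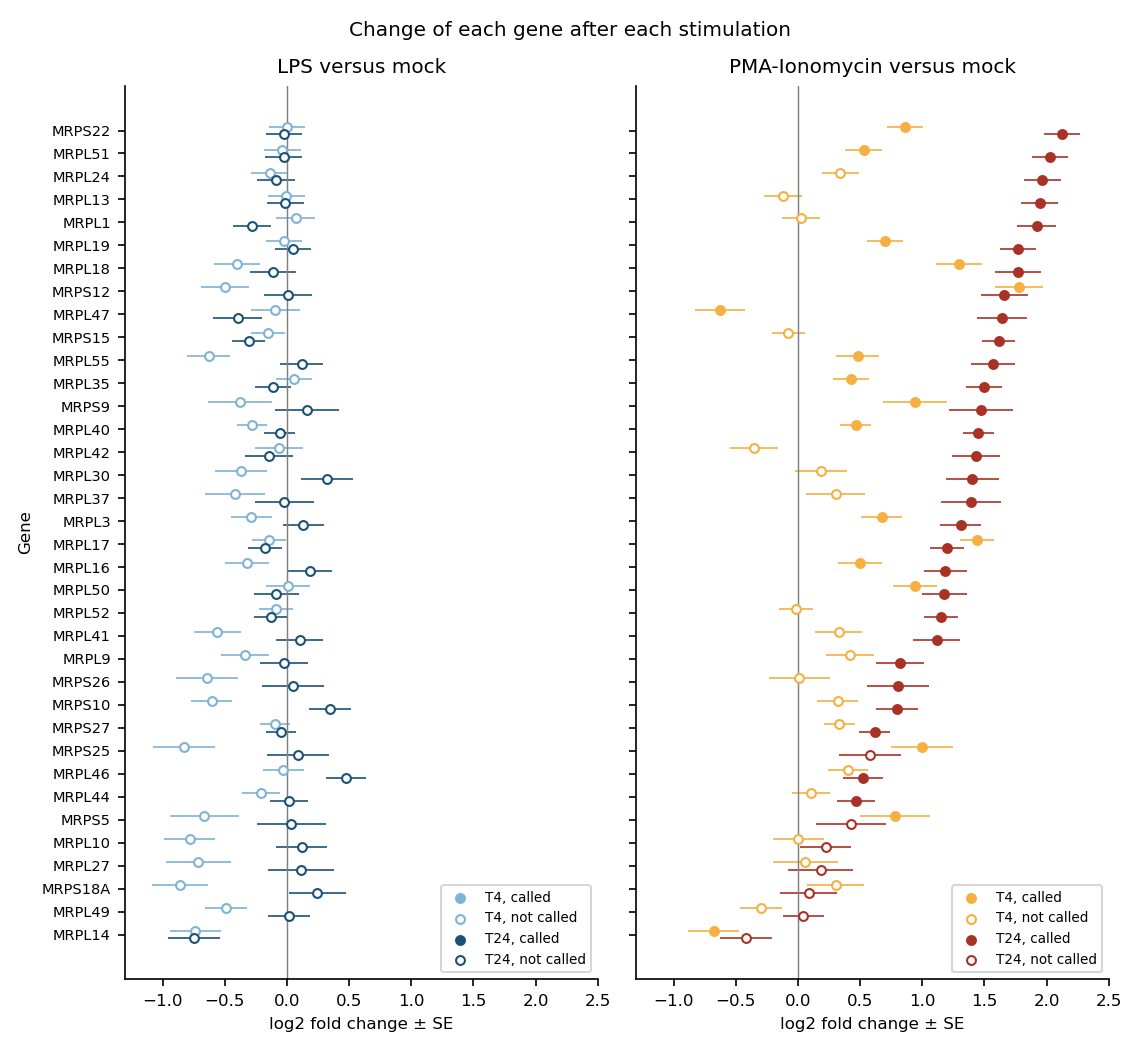
Log2 fold change of each of the 36 genes against mock of the same time, after LPS (left) and PMA-Ionomycin (right), with bars of 1 SE from limma (4 rabbits per group), 1 colour per time and filled points where the adjusted p was under 0.05. No point is filled after LPS, 17 are filled after PMA-Ionomycin at T4 and 29 at T24, and MRPL14 lies below 0 in all 4 comparisons.

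At T4, PMA-Ionomycin had moved fewer members. Of 36, 15 rose and 2 fell, whereas 22.8% of all genes passed the test, 13.5% rising and 9.35% falling. The median log2 fold change of the members was 0.34, against 0.05 over all genes, and with quantile normalization that of the members was 0.18. The groups did not overlap for 9 members higher after stimulation and 1 lower, against 12.2% and 9.23% of all genes. Among the genes well above background on all arrays, 23.1% rose and 15.9% fell. Both comparisons with mock use different mock cultures, those of T4 and those of T24. The split depended on scaling, since quantile normalization gave 12 members higher and 4 lower (MRPL14, MRPL42, MRPL47 and MRPL52), where 25.6% of all genes passed and 12.9% rose.

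The T4 count varied with the rabbits included. In rabbits 1, 4 and 5, 28, 30 and 30 members were higher after PMA-Ionomycin than in the same rabbit's mock culture, but in rabbit 2 only 16 were higher and 20 lower. The array of rabbit 2 at T4 after PMA-Ionomycin had 52.6% of its spots well above background, against 59.0% to 59.97% for the other 3 rabbits of the group. Without that array 18 members rose and none fell, with a median of 0.52, where 22.1% of all genes passed and 14% rose. Without rabbit 4 the counts were 7 higher and 1 lower, and without rabbit 1 they were 10 and 1, while the median stayed at 0.29 and 0.36 and the share of all genes called fell to 16.5% and 18.6%. At T4 the marker sums in mock and after PMA-Ionomycin were 166 to 358 and 74.5 to 194 for monocytes, 251 to 560 and 73.1 to 143 for B cells, 15.6 to 24.7 and 16.6 to 23.1 for T cells, and 265 to 452 and 44.1 to 170.1 for neutrophils. They were 40.3 to 95.8 and 7.20 to 15.8 for platelets, 1.4 to 3.05 and 1.03 to 1.67 for the NK cell marker, and 9.29 to 87.0 and 14.2 to 69.8 for erythrocytes. The neutrophil, B cell and platelet sums did not overlap between both groups. The part of the array signal and of the cell composition in the result was not tested.

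MRPS12, which lines the decoding centre of the small subunit, was the member with the largest early rise. Its levels at T4 were 3.84, 3.81, 3.78 and 3.91 in mock-stimulated cells and 5.61, 5.06, 5.87 and 5.93 after PMA-Ionomycin. The mock cultures agreed closely, and rabbit 2 was the lowest after stimulation yet still above all of them. The log2 fold change was 1.78 ± 0.19, or 3.44-fold (limma adjusted p = 2.3e-07). At T24 the log2 fold change was 1.66 ± 0.19, and the difference between both times, -0.12, did not pass the test.

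MRPL17, a large-subunit protein near the tunnel exit of the ribosome, behaved alike, with 4.19, 4.04, 4.05 and 3.94 in mock at T4 and 5.42, 5.15, 5.68 and 5.72 after PMA-Ionomycin. The groups were apart in every rabbit, with a log2 fold change of 1.44 ± 0.14 (limma adjusted p = 3.5e-08) at T4 and 1.20 ± 0.14 at T24. MRPL18, which in bacteria holds the 5S ribosomal RNA, had 4.35, 4.25, 4.16 and 4.49 in mock at T4 and 5.51, 5.09, 5.83 and 5.98 after stimulation, a log2 fold change of 1.29 ± 0.18, and 1.77 ± 0.18 at T24. In MRPL18 as in MRPS12, rabbit 2 gave the lowest stimulated value without reaching the mock range.

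Both times together, 13 members rose at T4 and at T24 (MRPL3, MRPL16, MRPL17, MRPL18, MRPL19, MRPL35, MRPL40, MRPL50, MRPL51, MRPL55, MRPS9, MRPS12 and MRPS22). MRPS9 and MRPL50 had log2 fold changes of 0.94 at T4, with standard errors of 0.26 and 0.18. Of these T4 calls, those of MRPL17, MRPL18, MRPL19, MRPL50, MRPS12 and MRPS22 held under all 15 alternatives tried. The weakest were MRPL55, whose call held under 3 of 15, MRPL16 under 5 and MRPL35 under 6. Those of MRPL40 and MRPL51 held under 12, MRPS9 under 13 and MRPL3 under 14.

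MRPS5 and MRPS25, of the small subunit, rose at T4 and had no call at T24. MRPS25 had 3.13, 3.24, 3.61 and 3.97 in mock at T4 and 4.63, 3.64, 4.76 and 4.92 after PMA-Ionomycin. Every rabbit was higher after stimulation than in its own mock culture, but rabbit 2 lay within the mock range. This gave a log2 fold change of 1.00 ± 0.25 (limma adjusted p = 0.0041), and without rabbit 1 it was 0.83 (adjusted p = 0.073). At T24 it was 0.58 ± 0.25 (adjusted p = 0.082), with the stimulated cultures at 4.08 to 4.64 above the mock cultures at 3.79 to 3.96, and with the rabbit as a block it passed the test (adjusted p = 0.020). For MRPS5 the values were 0.78 ± 0.28 (limma adjusted p = 0.048) at T4 and 0.43 ± 0.28 (adjusted p = 0.30) at T24, and its T4 call held under 9 of 15 alternatives. It ended without rabbit 1 (0.66), without rabbit 4 (0.60), with the processed signal (0.88), with the deposited table (0.70), when only the arrays compared were fitted (0.78) and with the slide as a block (0.78). The difference between both times passed the test for neither gene, so neither is shown to have risen at T4 more than at T24.

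The change of the PMA-Ionomycin effect from T4 to T24 was tested directly as an interaction. It passed for 16 members, all with a larger effect at T24, against 22.5% of all genes in either direction and 14.4% upward. Among the genes well above background on all arrays, 27.1% passed upward. The median of the members was 0.66, against -0.02 over all genes, and with quantile normalization that of the members was 0.34. By class, these were 8 of 16 large-subunit genes with a bacterial homologue, 6 of 11 specific to mitochondria, and 1 each of the 5 and 4 small-subunit genes, MRPS15 and MRPS22. Quantile normalization gave 14 members with a larger effect at T24 and 1, MRPL17, with a smaller one, where 22.1% of all genes passed and 12.2% upward.

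MRPL47, a large-subunit protein whose bacterial homologue lies at the tunnel exit, had the largest interaction, 2.27 (limma adjusted p = 1.9e-06). At T4 its levels were 3.72, 2.84, 3.12 and 3.12 in mock and 2.86, 2.16, 2.53 and 2.74 after PMA-Ionomycin. Each rabbit was lower after stimulation, although the groups overlapped through rabbits 1 and 2. The log2 fold change was -0.63 ± 0.20 (adjusted p = 0.023). The T4 fall was lost without rabbit 1 (-0.55, adjusted p = 0.085), without rabbit 2 (-0.61, adjusted p = 0.062), without rabbit 4 (-0.64, adjusted p = 0.10), when only the arrays compared were fitted (-0.63, adjusted p = 0.062) and without the single PMA-Ionomycin array of rabbit 2 (-0.49, adjusted p = 0.10). At T24 its levels were 3.29, 3.31, 3.71 and 3.05 in mock and 5.00, 5.39, 4.82 and 4.72 after PMA-Ionomycin, so that all stimulated cultures lay above all mock cultures. Its log2 fold change was then 1.64 ± 0.20 (adjusted p = 4.4e-07).

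MRPL13 followed with an interaction of 2.07 (adjusted p = 1.3e-07). Its mock levels at T4 were 3.08, 2.52, 2.49 and 2.75, and those after PMA-Ionomycin 2.59, 2.33, 2.62 and 2.81, which overlapped, with a log2 fold change of -0.12 ± 0.15. At T24 the mock cultures had 2.57, 2.63, 2.78 and 2.78 and the stimulated ones 4.84, 4.65, 4.55 and 4.49. MRPL13 therefore overlapped with mock after 4 h and lay above it after 24 h in all 4 rabbits.

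MRPL1 had an interaction of 1.90, from a log2 fold change of 0.02 ± 0.15 at T4. MRPL42, a mitochondria-specific protein, had 1.79, from -0.36 ± 0.19 at T4 (adjusted p = 0.23) to 1.43 ± 0.19 at T24. It was lower in all 4 rabbits at T4, and with the rabbit as a block (adjusted p = 0.044) and with quantile normalization (-0.51, adjusted p = 0.028) that fall passed the test. MRPS15, whose bacterial homologue is an early binder in the assembly of the small subunit, had an interaction of 1.69. Its levels at T24 were 3.90, 3.83, 3.82 and 3.90 after PMA-Ionomycin, within a narrow range, and 2.20, 2.35, 2.39 and 2.05 in mock. In all, 15 members had no call at T4 and rose at T24 (MRPL1, MRPL9, MRPL13, MRPL24, MRPL30, MRPL37, MRPL41, MRPL42, MRPL44, MRPL46, MRPL52, MRPS10, MRPS15, MRPS26 and MRPS27). Of these, MRPL9, MRPL44, MRPL46, MRPS10, MRPS26 and MRPS27 did not pass the interaction. Those genes are therefore not shown to have risen more at T24 than at T4. MRPL41, also known for a role in apoptosis, went from a log2 fold change of 0.33 ± 0.19 to 1.12 ± 0.19, with an interaction of 0.79 (adjusted p = 0.035). That interaction call held under only 6 of 15 alternatives, and with quantile normalization it was 0.41 (adjusted p = 0.24).

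**Figure D3:**
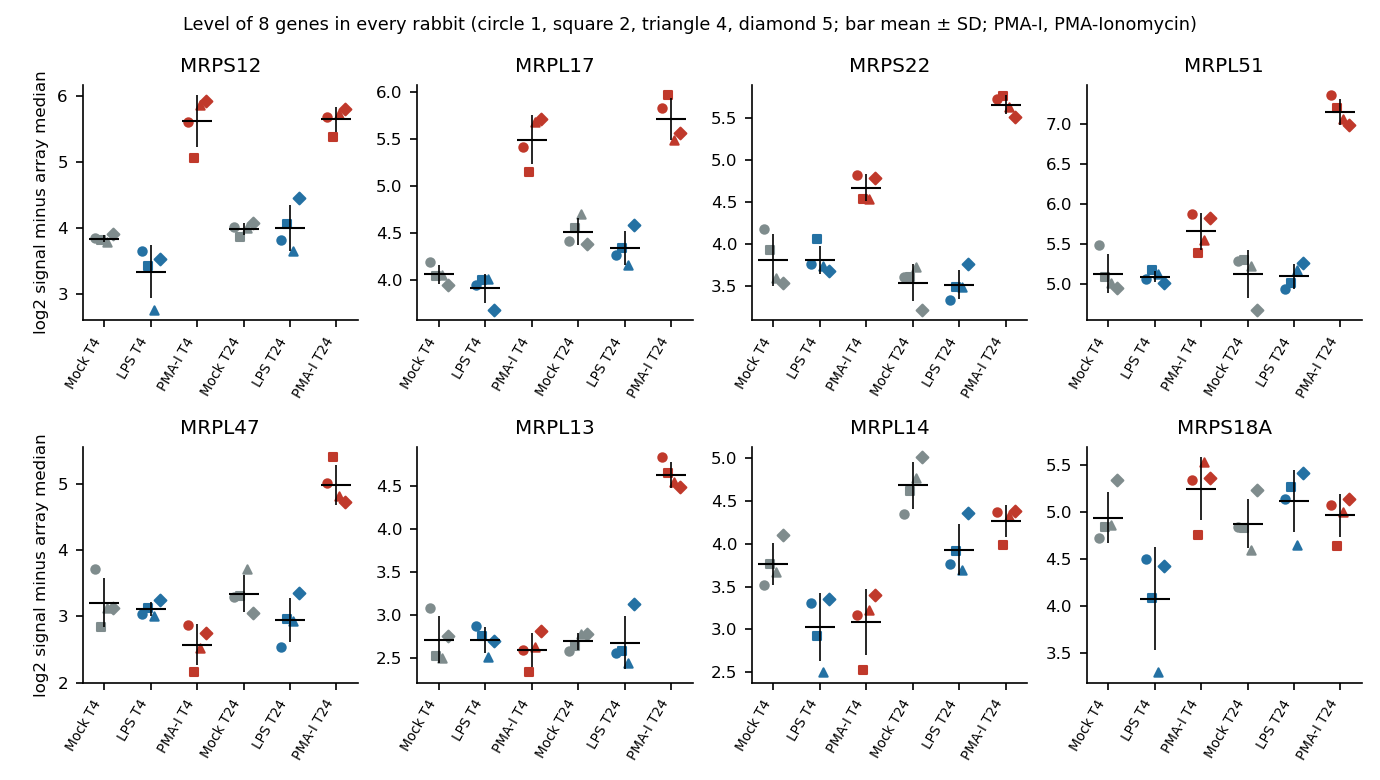
Log2 signal minus the array median of 8 genes in the 6 groups, with 1 symbol per rabbit (circle 1, square 2, triangle 4, diamond 5), a bar at the mean of the 4 rabbits and a line of 1 SD on each side. MRPS12 and MRPL17 are above mock at both times after PMA-Ionomycin, MRPS22, MRPL51, MRPL13 and MRPL47 are highest at T24, and the mean of MRPL14 is below that of mock after each stimulation at each time.

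MRPL14, a conserved protein at the face of the large subunit that meets the small one, was called lower at T4, as was MRPL47, and had no call at T24. Its levels at T4 were 3.51, 3.77, 3.67 and 4.10 in mock and 3.17, 2.52, 3.23 and 3.40 after PMA-Ionomycin. Every stimulated culture was below every mock culture, with rabbit 2 lowest. The log2 fold change was -0.68 ± 0.21 (limma adjusted p = 0.018). Without rabbit 2 it was -0.49 (adjusted p = 0.20), and without the PMA-Ionomycin array of that rabbit -0.49 (adjusted p = 0.094), so the call rests on rabbit 2. At T24 the mock levels were 4.34, 4.61, 4.76 and 5.01 and those after PMA-Ionomycin 4.37, 3.98, 4.33 and 4.38. The groups overlapped through the lowest mock culture, that of rabbit 1, and the log2 fold change was -0.42 ± 0.21 (adjusted p = 0.14). Quantile normalization gave a fall of the gene at T24, -0.93 ± 0.19 (limma adjusted p = 0.00051). So did normexp then quantile normalization (-0.91, adjusted p = 0.0006) and the processed signal (-0.72, adjusted p = 0.0051).

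After PMA-Ionomycin, 4 members passed the test at neither time. MRPS18A had log2 fold changes of 0.30 ± 0.23 at T4 and 0.09 ± 0.23 at T24. MRPL10, which anchors the stalk proteins of the large subunit, had 0.00 ± 0.21 and 0.23 ± 0.21. MRPL27, near the site where peptide bonds are made, had 0.06 ± 0.26 and 0.18 ± 0.26. MRPL49 had -0.30 ± 0.17 and 0.04 ± 0.17. At T24 the levels of MRPS18A were 4.84, 4.83, 4.60 and 5.23 in mock and 5.07, 4.63, 5.00 and 5.13 after PMA-Ionomycin, a full overlap.

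LPS gave no call among the members at either time. At T4, where 1.02% of all genes passed the test and 0.968% fell, 0 of 36 members passed, but 14 had an unadjusted p under 0.05 in limma, all of them lower after LPS, against 13.9% of all genes in either direction. Values were below 0 on the log2 scale for 33 of 36 members, against 39.7% of all genes and 63% of those well above background on all arrays. The median of the members was -0.30, against 0.06 over all genes and -0.08 over the bright ones. It was -0.18 with quantile normalization, -0.16 with normexp before it and -0.12 with the processed signal, where the medians of all genes were 0.02, 0.01 and 0.22. For 12 members every LPS culture lay below every mock culture, against 5.04% of all genes.

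With the rabbit as a block, 7 members fell after LPS at T4 (MRPS18A, MRPS25, MRPL10, MRPL14, MRPL55, MRPS10 and MRPL49), with adjusted p from 0.019 to 0.042, and 4.25% of all genes passed that test. Leaving out dim probes gave 2, MRPS18A and MRPL10, with adjusted p of 0.04998 and 0.048, where 2.48% of genes passed. MRPS18A had 4.72, 4.84, 4.86 and 5.33 in mock and 4.50, 4.09, 3.30 and 4.42 after LPS. Each LPS culture lay below all mock cultures, and rabbit 4 was by far the lowest. The log2 fold change was -0.86 ± 0.23 (adjusted p = 0.068).

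MRPL10 showed the same arrangement, with 2.85, 2.98, 3.05 and 3.20 in mock and 2.62, 2.48, 1.35 and 2.5 after LPS. Rabbit 4 was again far below the others, and the log2 fold change was -0.78 ± 0.21 (adjusted p = 0.064). MRPS25 had a log2 fold change of -0.83, MRPL14 of -0.74 and MRPL55 of -0.63, with adjusted p of 0.10, 0.080 and 0.076 without the block. The LPS array of rabbit 4 at T4 had 51.4% of its spots well above background, against 55.8% to 59.8% in the other rabbits. Without it no member passed, 8 had an unadjusted p under 0.05 and the median was -0.26.

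The differences after LPS at T4 moved with the base composition of the probes. Across the 36 members, Spearman's rho between the log2 fold change and the percentage of G and C in the probe was -0.51, and across the 12264 genes well above background on all arrays it was -0.24, a description over genes on shared arrays. Members with probes of low, middle and high GC percentage (6, 18 and 12 genes, with limits at 40% and 45%) had medians of -0.15, -0.22 and -0.53, and all bright genes -0.02, -0.14 and -0.24. After PMA-Ionomycin at T4 the correlation was -0.02 across members and 0.01 across genes, and at T24 it was -0.26 in both. At T24 the member medians in these 3 classes were 1.29, 1.41 and 0.96 after PMA-Ionomycin, against 0.57, 0.12 and 0.01 for bright genes. The monocyte markers summed to 166 to 358 in mock at T4 and to 84.3 to 121 after LPS, those of B cells to 251 to 560 and 80.8 to 335, and those of neutrophils to 265 to 452 and 86.9 to 374. The T cell markers had 15.6 to 24.7 and 14.1 to 24.4, the NK cell marker 1.4 to 3.05 and 1.03 to 2.41, the platelet markers 40.3 to 95.8 and 15.3 to 58.1, and the erythrocyte markers 9.29 to 87.0 and 10.0 to 57.3. The part of composition or of the probes in the result was not tested.

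**Figure D4:**
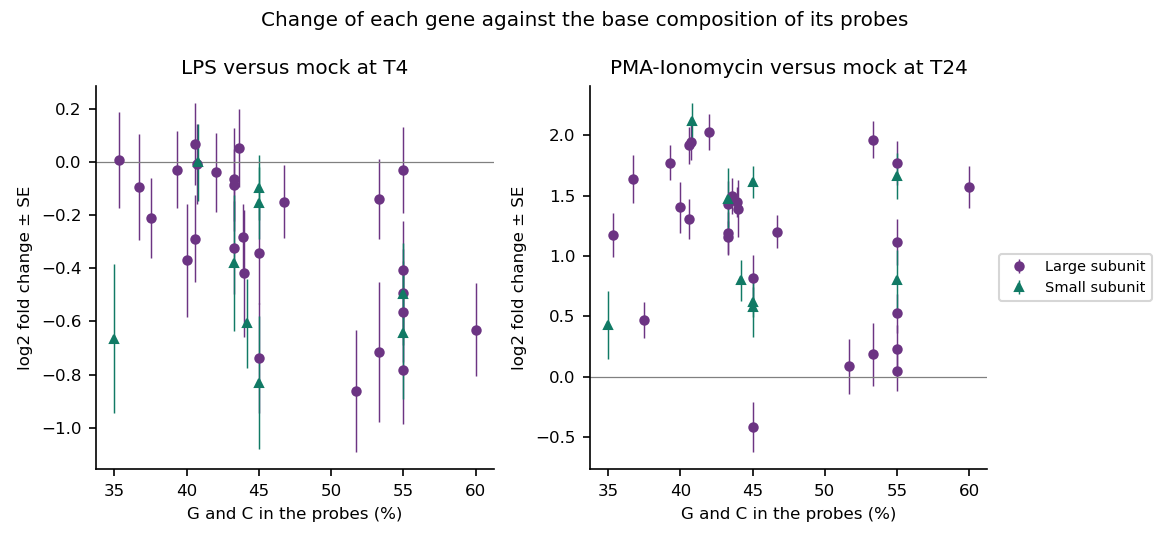
Log2 fold change of each gene with bars of 1 SE from limma (vertical) against the percentage of G and C in its probes (horizontal), after LPS at T4 (left) and PMA-Ionomycin at T24 (right), with circles for the 27 large-subunit genes and triangles for the 9 small-subunit genes. After LPS the genes with over 45% G and C have a median of -0.53, and after PMA-Ionomycin all genes but MRPL14 lie above 0.

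At T24 after LPS, where 1.22% of all genes passed, 0 of 36 members did and 4 had an unadjusted p under 0.05 in limma, 2 of them lower, against 10.8% of all genes. The median was -0.00, against -0.03 over all genes. MRPL14 was the lowest, with 4.34, 4.61, 4.76 and 5.01 in mock and 3.76, 3.92, 3.70 and 4.36 after LPS. Each rabbit was lower after LPS, and rabbit 5 reached the lowest mock value. The fitted log2 fold change was -0.75 ± 0.21 (adjusted p = 0.082). With the rabbit as a block it passed (adjusted p = 0.015), the only member to do so at this time, where 2.61% of all genes passed. Of 3 neutrophil markers 1 was higher and 1 lower after LPS, and of 8 monocyte markers 1 was lower. No marker of the other cell types passed. The neutrophil sums were 78.0 to 1853 in mock and 1248 to 3090 after LPS. The part of these markers in the result was not tested.

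In mock-stimulated cells, 3 of 36 members rose from T4 to T24 and none fell, where 12.6% of all genes passed and 7.42% rose, so that the share of members rising was near that of all genes. At an unadjusted p under 0.05 in limma there were 7, 1 of them lower, against 22.3% of all genes. The T24 cultures were above the T4 cultures without overlap for 5 members, against 7.18% of all genes. The 3 were MRPL14 (log2 fold change 0.92), MRPL9 (0.78) and MRPL17 (0.46). MRPL9 went from 3.70, 3.63, 3.45 and 3.88 to 4.4, 4.31, 4.47 and 4.62, without overlap. The same mock cultures enter the comparisons with each stimulation, so the mock rise of MRPL14 and its lower level after stimulation are not independent. Quantile normalization gave 3 higher and 2 lower (MRPL46 and MRPS22), where 13.8% of all genes passed. Without rabbit 1 or without rabbit 4 a single member rose, where 8.08% and 8.23% passed. Between the mock cultures of T4 and T24 the marker sums went from 166 to 358 up to 364 to 884 for monocytes, where 5 of 8 markers rose, and from 40.3 to 95.8 down to 2.95 to 5.29 for platelets, where 2 of 3 fell. Of 8 T cell markers 2 fell, and of 5 B cell and 3 neutrophil markers 1 each rose. The part of the cell composition in these differences was not tested.

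PMA-Ionomycin was also set against LPS directly. At T4, 23 of 36 members were higher after PMA-Ionomycin and none lower, where 26.7% of all genes passed and 17.7% were higher. Among the genes well above background on all arrays, 32.4% were higher. The median of the members was 0.74, against -0.04 over all genes, and with quantile normalization that of the members was 0.42. Quantile normalization gave 18 higher and 5 lower, where 30.8% of all genes passed and 15.5% were higher. Without the PMA-Ionomycin array of rabbit 2, 28 were higher (27.4% of all genes passed), without the LPS array of rabbit 4, 23 (25% passed), and none was lower in either case. The marker sums of both groups at T4 are those given above. Of the markers, 3 of 5 for B cells and 2 of 3 for platelets were lower after PMA-Ionomycin than after LPS. Higher were 1 for B cells, 2 of 8 for T cells and 1 of 3 for erythrocytes, and of 8 for monocytes 2 were higher and 2 lower. Their part in the result was not tested. At T24, 28 members were higher, and none was lower even at an unadjusted p under 0.05 in limma. Of all genes 36.1% passed and 23.6% were higher, and of those well above background on all arrays 42.7% were higher. The median of the members was then 1.27, against 0.05 over all genes, and 0.70 with quantile normalization. That normalization gave 22 members higher and 1 lower, where 35.6% of all genes passed and 18.8% were higher. At T24 the marker sums after LPS and after PMA-Ionomycin were 1248 to 3090 and 5.82 to 16.6 for neutrophils, 314 to 734 and 70.6 to 133 for monocytes, 123 to 478 and 149 to 297 for B cells, and 11.4 to 16.6 and 14.7 to 18.6 for T cells. They were 1.65 to 2.59 and 2.92 to 3.95 for the NK cell marker, 3.77 to 5.06 and 4.92 to 9.62 for platelets, and 7.54 to 35.7 and 4.82 to 11.4 for erythrocytes. The neutrophil, monocyte and NK cell sums did not overlap. Of single markers, 2 of 3 for neutrophils and 4 of 8 for monocytes were lower after PMA-Ionomycin, and the NK cell marker was higher. The 3 neutrophil markers did not move alike, with log2 fold changes from -9.92 to 0.05. Of 5 for B cells 2 were higher and 1 lower, and of 8 for T cells 1 was higher and 1 lower. The part of these markers in the result was not tested. These comparisons use the PMA-Ionomycin cultures already described.

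Genes that work with the mitochondrial ribosome moved to different extents. Of all genes, 13.5% rose and 9.35% fell at T4, and 22.1% rose and 11.5% fell at T24. Of the genes well above background on all arrays, 23.1% rose at T4 and 40% at T24. DAP3, a small-subunit protein and the only one found of 6 subunits without an MRP symbol, had log2 fold changes of 0.55 (limma adjusted p = 0.021) at T4 and 0.81 (adjusted p = 0.00056) at T24. Of 13 mitochondrial translation factors found, 6 rose and 1 fell at T4, and 10 rose and none fell at T24, with medians of 0.22 and 0.65. MRRF, which recycles the ribosome after termination, rose by 1.62 on the log2 scale at T4, and MTIF3, an initiation factor, fell by 0.74. LRPPRC, which stabilises mitochondrial messenger RNAs, rose by 1.17 at T4 and 1.81 at T24. GFM1, an elongation factor, and MTFMT, which formylates the initiator transfer RNA, both rose by 1.6 at T24.

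Of 12 assembly and RNA modification factors found, 4 rose and 1 fell at T4 and 5 rose and none fell at T24. The 41.7% that rose at T24 was near the 40% of the genes well above background on all arrays. FASTKD2, needed for the large subunit to form, rose by 1.03 and then by 2.82 on the log2 scale, and the GTPase GTPBP10 fell by 0.56 at T4 and rose by 0.78 at T24. Of 14 genes for mitochondrial aminoacyl-tRNA synthetases and the amidotransferase found, 3 rose and 2 fell at T4 and 6 rose and 1 fell at T24. The 42.9% of them that rose at T24 was likewise near that 40%. NARS2 rose by 2.39 at T24. FARS2 and RARS2 fell by 0.77 and 1.07 at T4 and rose by 1.56 and 1.05 at T24, and EARS2 fell by 0.33 at T24.

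TFAM, which packages mitochondrial DNA and starts its transcription, rose by 1.22 at T4 and 1.68 at T24, among 6 transcription and replication genes of which 2 rose and 1 fell at T4 and 3 rose and none fell at T24. Of 8 regulators, 3 rose and none fell at T4, and 2 rose and 3 fell at T24. The 25% of regulators that rose at T24 was near the 22.1% of all genes. PPRC1, a coactivator of nuclear genes for mitochondrial proteins, rose by 2.37 at T4 and 1.83 at T24, whereas its relative PPARGC1B rose by 0.73 at T4 and fell by 1.33 at T24.

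The nuclear genes for oxidative phosphorylation subunits make proteins that combine with the products of the mitochondrial ribosome. Of 37 found, 1 rose and 6 fell at T4, with a median of -0.17, and 23 rose and none fell at T24, with a median of 0.71. NDUFA4 rose most, by 2.21 on the log2 scale. Of 13 cytosolic ribosomal protein genes found, 0 passed at T4, none with an unadjusted p under 0.05 in limma (median 0.23). At T24, 8 rose and none fell (median 0.65). In mock-stimulated cells 8 of these 13 fell from T4 to T24 and none rose (median -0.515), where 5.14% of all genes fell. Their median level was 10.46 in mock at T4 and 10.00 at T24, and 10.69 and 11.07 after PMA-Ionomycin. The T24 rise is thus read against a mock level that had itself fallen. The lists were not tested against each other, and all are read against the shares of all genes given above.

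**Figure D5:**
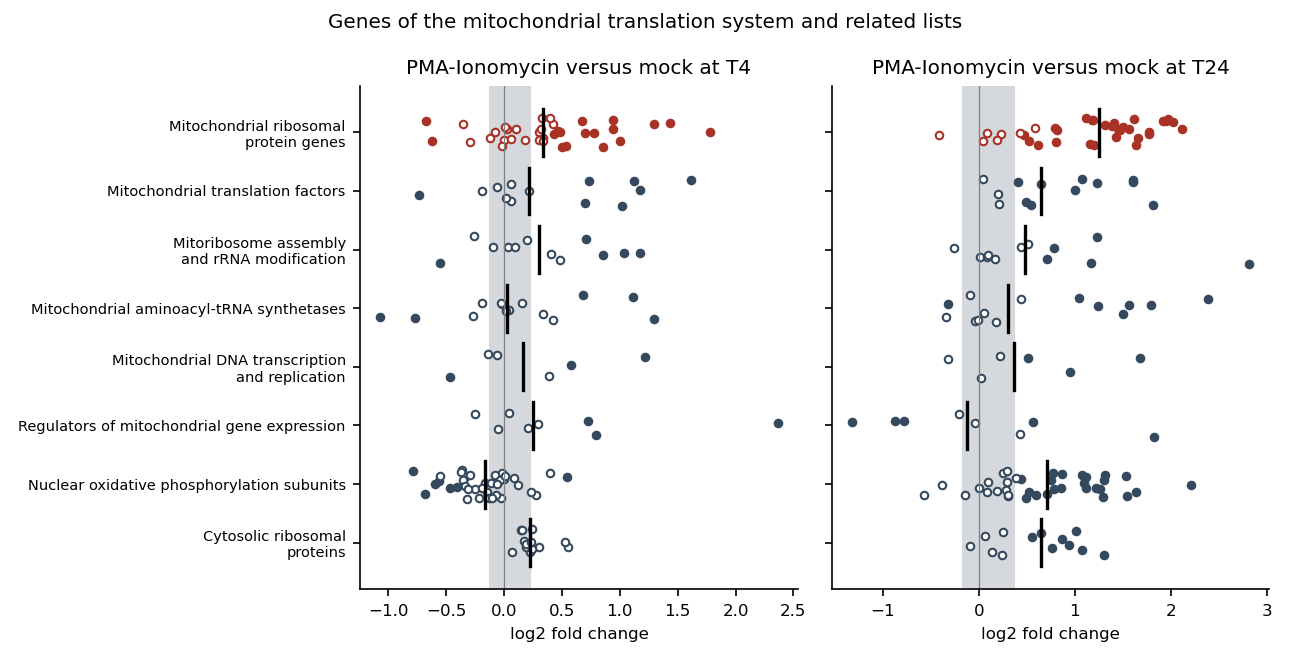
Log2 fold change after PMA-Ionomycin against mock at T4 (left) and T24 (right) for the mitochondrial ribosomal protein genes (red) and 7 related lists, with 1 point per gene, filled where the adjusted p was under 0.05, a bar at the median of each list and a grey band between the lower and upper quartile of all genes tested. The mitochondrial ribosome goes from a median of 0.34 to 1.26 and the oxidative phosphorylation subunits from -0.17 to 0.71.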

How the data were processed

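The authors deposited the scanner output of 24 one-colour arrays, in which the median, mean and background signals are spot intensities without scaling between arrays and the processed signal is an intensity after background subtraction and removal of a spatial trend. The submitters' processing notes name Agilent Feature Extraction 10.7.3.1. A log2 value table was deposited as well, and its values matched log2 median signals centred on the array mean (differences up to 5e-09).

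Control spots were left out, which kept 61657 spots of each array, and spots marked as outliers were not used. Log2 median signals were centred on the array median and averaged per probe and then per gene. Probes were named through the RefSeq gene list by accession (9216 probes) or gene number (8450), else by the gene name of the file (2047), and 22376 kept their identifier. All 24 arrays entered 1 model of 6 group means in limma 3.58.1 in R 4.3.3 (with data.table, version 1.17.8), following the statistics of the study, and p-values were adjusted by Benjamini-Hochberg over 28914 genes. Summaries and plots were made in Python 3.11.15, using pandas 2.3.3, numpy 2.4.6, matplotlib 3.10.9 and scipy 1.17.1. The number of arrays limits the precision.

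The members and gene lists were chosen with earlier results of these data known. Genes named are, for each comparison with mock, the called members with the 6 largest rises and falls that moved alike in 4 of 4 rabbits, every member called after LPS, the 5 most positive and most negative called interactions, the 3 brightest and 3 dimmest members, members called against the majority, and members with a special place. Other members are named where a count or a setting singles them out.

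The rabbit numbers mark the same animals in all groups. Once group means were subtracted, pairs of arrays from 1 rabbit correlated with a median of 0.228 (60 pairs), and pairs from different rabbits with -0.0755 (180 pairs). The methods of the study use no pairing, so a rabbit block entered only as an alternative. The others were quantile normalization, normexp (offset 50) before quantile normalization, scaling of the processed signal by its 75th percentile, the deposited table, leaving out dim probes, keeping outlier spots, the slide as a block, fitting only the arrays compared, eBayes with trend and robust, the brightest probe of each gene, and leaving out each rabbit. Leaving out single arrays was chosen after seeing the data. Promoters and proteins were not analysed here.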

Additional observations from a re-analysis of the deposited data

Results flagged for a closer look

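In 14 of 222 groups of 4 rabbits (36 members and their median, in 6 groups each), 1 rabbit lay far from the others, where chance alone gives about 1 in 20. The values are the gap to the nearest rabbit as a share of the range of the group. After PMA-Ionomycin at T4, rabbit 2 was the lowest with 0.848 for MRPL10 (level 2.56), 0.869 for MRPL27 (4.36), 0.862 for MRPL30 (3.06), 0.989 for MRPL40 (6.64) and 0.852 for MRPL44 (2.76). At T24, rabbit 2 was the lowest after PMA-Ionomycin with 0.863 for MRPL14 (3.98) and 0.871 for MRPL37 (5.39). After LPS at T4, rabbit 4 was the lowest with 0.89 for MRPL10 (1.35) and 0.852 for MRPS26 (1.72), and rabbit 1 the highest with 0.937 for MRPL42 (3.61). After LPS at T24, rabbit 5 was the highest with 0.928 for MRPL37 (5.17). In mock, the values were 0.849 for MRPL44 at T4, lowest in rabbit 4 (2.72), 0.881 for MRPL51 at T24, lowest in rabbit 5 (4.68), and 0.915 for MRPS26 at T24, highest in rabbit 4 (4.15).

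The effect of PMA-Ionomycin differed between T4 and T24 by the limma interaction term for 16 members. The T24 effect exceeded the T4 effect, on the log2 scale, by 1.90 for MRPL1, 2.07 for MRPL13, 1.07 for MRPL19, 1.63 for MRPL24, 1.22 for MRPL30, 1.07 for MRPL35, 1.09 for MRPL37 and 0.98 for MRPL40. The corresponding differences were 0.79 for MRPL41, 1.79 for MRPL42, 2.27 for MRPL47, 1.5 for MRPL51, 1.17 for MRPL52, 1.09 for MRPL55, 1.69 for MRPS15 and 1.26 for MRPS22.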

How the results depend on the processing

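Of the calls among the members, 24 of 29 for PMA-Ionomycin at T24 and 14 of 16 for the interaction held under all 15 alternatives, but 6 of 17 for PMA-Ionomycin at T4. Against LPS, 16 of 23 held at T4 and 22 of 28 at T24, and in mock over time 1 of 3. With 1 rabbit left out, the number of calls ranged from 8 to 16 for PMA-Ionomycin at T4 (11 without rabbit 1, 8 without rabbit 4), 27 to 29 at T24, 14 to 16 for the interaction, 18 to 25 and 25 to 28 against LPS, 1 to 3 for mock over time, and 0 to 0 for LPS at both times. With the rabbit as a block, LPS gave 7 calls at T4 and 1 at T24, all lower. That pairing also added calls for MRPL42 (lower) at T4 and MRPS25 at T24 after PMA-Ionomycin, MRPL3 and MRPL16 in the interaction, MRPL41 in mock over time, and MRPL30, MRPL35, MRPL46, MRPS26 (T4) and MRPS25 (T24) against LPS. It ended no call. Leaving out dim probes gave 2 calls for LPS at T4. Mock over time gave 5 calls with quantile normalization, 7 with normexp then quantile normalization and 5 when only the arrays compared were fitted, where 13.8%, 13.7% and 9.08% of all genes passed, and the cause was not tested. MRPS10 against LPS at T24 changed sign to -0.0166 with quantile normalization and -0.002 with normexp then quantile normalization. Scaling the processed signal moved the median of all genes to -0.26 after PMA-Ionomycin at T24 and to 0.22 after LPS at T4, and the members lay 1.38 above that median at T24, against 1.22 as reported, 0.80 with quantile normalization and 0.79 with normexp then quantile normalization. MRPS27 was near background, which limits its values.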
